A study of Mus musculus with 8 samples.

Results

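The genes followed here mark spinal interneuron classes or the transmitter a neuron releases, in motor neuron cultures made from mouse embryonic stem (ES) cells. They are the transmitter genes Gad1, Gad2, Slc32a1 and Slc17a6 and the transcription factor genes Gata2, Gata3, Dmrt3, Evx1 and En1. The 9 symbols were chosen with earlier results of these data known, so counts over them are descriptions. A gene was taken in if the RefSeq accession of a probe on the array maps to its symbol. All 9 were found, on 10 probes of 55681, among 19897 gene symbols on the array. Slc32a1 has 2 probes and each of the other 8 genes has 1. Of the 9 genes, 8 passed the filter on dim probes and were tested among 24623 genes, and En1 did not.

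The study compared control ES cells, called WT in the design text, with ES cells that carry a knockout of Litchi, all male and named Hb9GFP in the sample titles. All groups were given retinoic acid (RA) and Sonic hedgehog (Shh) from day 2 to day 5, whole embryoid bodies were then split into single cells, and GDNF was applied until sampling. The 4 groups are control day 7, knockout day 7, control day 9 and knockout day 9, with 2 arrays each and 8 in all. The labels name no sort of GFP-positive cells, give no allele for the knockout and do not say whether each genotype is 1 clone. Nothing in the labels says that replicates came from separate cultures, so p-values measure no more than how far these samples lie apart, and that spread may be technical. The name Litchi maps to no gene in the table used, so the level of the targeted gene was not analysed here.

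In the developing spinal cord, Shh from the floor plate sets up ordered domains of progenitors, each of which gives rise to motor neurons or to a class of interneurons. Evx1 marks excitatory cells of the V0 class, En1 marks the inhibitory V1 class, Gata2 and Gata3 mark the inhibitory V2b class, and Dmrt3 marks dI6 cells, which act in the circuits for stepping. Gad1 and Gad2 encode the enzymes that make the inhibitory transmitter GABA, Slc32a1 encodes the transporter that loads GABA and glycine into vesicles, and Slc17a6 encodes a transporter that loads the excitatory transmitter glutamate. Motor neurons themselves release acetylcholine.

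Values are log2 signals relative to the 75th percentile of the same array, so 0 is the level of that percentile and 1 unit is a 2-fold step. They are comparable between arrays for 1 probe and not between genes. Summed levels of a gene list, given below, are weighted to its brightest probes and do not measure an amount of RNA. The 75th percentile ran from 649 to 1691 intensity units, and in all 4 groups the replicate 1 array was the brighter one. All 8 arrays lay on 1 slide. Across genes, the median absolute difference between the replicates of a group was 0.18 to 0.24 log2 units. All 10 motor neuron genes listed as a check of the labelled cell type (among them Isl1, Isl2, Lhx3 and Chat) were well above background on all 8 arrays. In such bulk RNA, fewer cells of a type and less RNA per cell cannot be told apart.

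Averaged over both days, 5 of the 8 tested genes were lower in knockout than in control cultures: Dmrt3, Gad1, Gata2, Gad2 and Gata3. None was higher. Of all genes tested, 14.8% were called in that comparison, and 9.34% were called lower. The median over the 8 genes was -0.72, against -0.04 over all genes tested. On day 9 alone, 2 of the 8 were called, Dmrt3 and Gad2, both lower, against 5.47% of all genes. On day 7 alone, limma called none of the 8 at an adjusted p under 0.05, against 0.215% of all genes, and 3 (Dmrt3, Gata2 and Gata3) had an unadjusted p under 0.05, against 18.9% of all genes. The arrays of the 2 genotypes did not overlap for 5 of the 8 genes on day 7 and for 7 of the 8 on day 9. That is common here, since it held for 48.3% of all genes on day 7 and 59.7% on day 9. With all 4 knockout arrays set against all 4 control arrays, Gad2, Gata2 and Dmrt3 did not overlap (3 of 8 genes), against 14% of all genes. None of the 8 passed limma's test of a difference between the knockout effects on the 2 days, against 0.00406% of all genes (1 gene). At an unadjusted p under 0.05 that difference held for 3 of the 8 (Gad2, Slc32a1 and Gata2), against 6.01% of all genes.

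**Figure D1:**
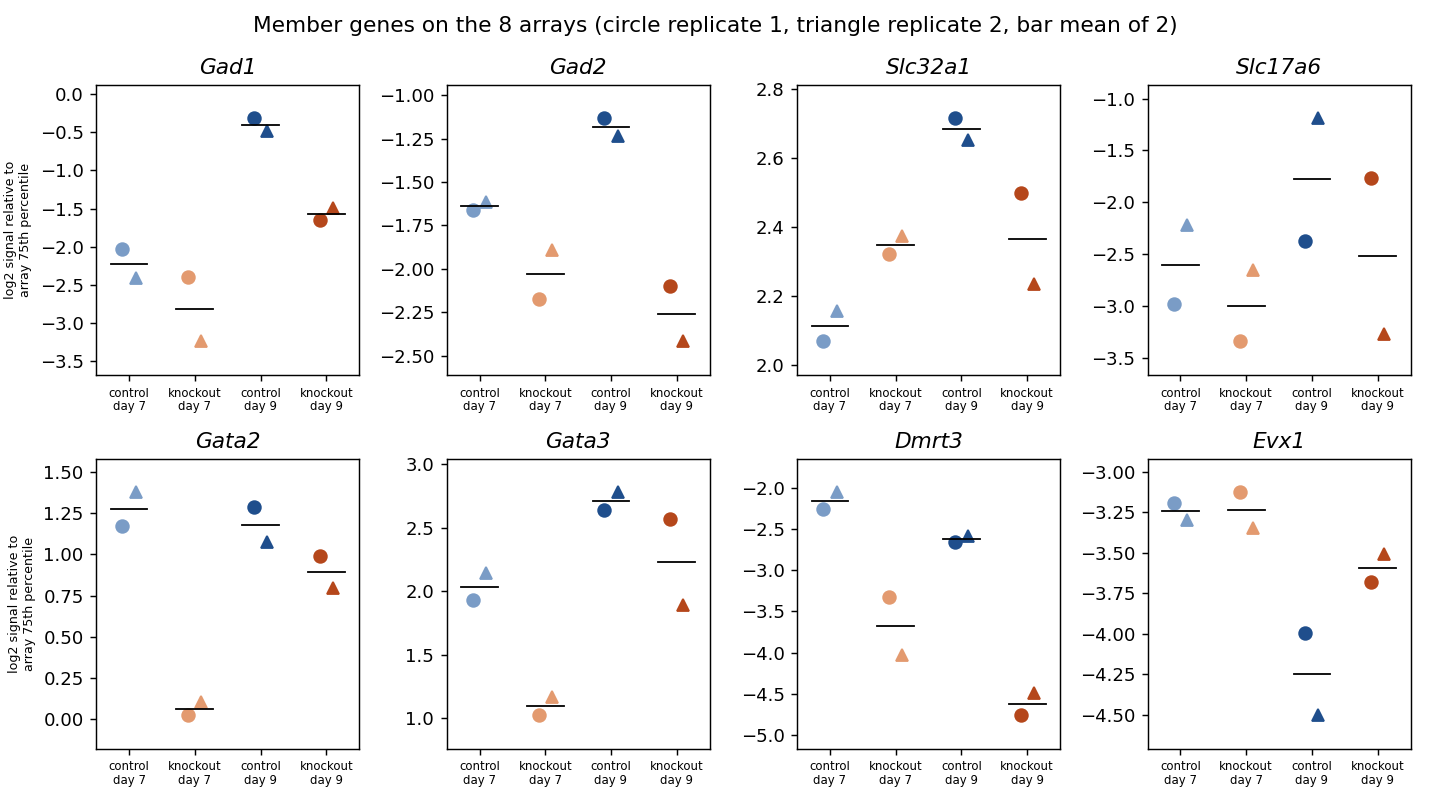
Each panel plots 1 gene, with the 4 groups along the horizontal axis and the log2 signal relative to the 75th percentile of the array on the vertical axis, which has its own range in every panel. Circles are replicate 1, triangles are replicate 2 and black bars are means of 2 arrays; for Dmrt3 the highest knockout array (-3.32) lies below the lowest control array (-2.65).

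The promoters of the 5 genes called lower over both days are shown beside that of Slc32a1, whose bright probe was not called. Each is the 250 bases before the start of a RefSeq transcript, 5′ to 3′ on the strand of the gene, in build GRCm38.p6. The motifs searched, on both strands, were GATAA (bound by GATA factors), TAATTA (bound by homeodomain factors), GGGCGG (the GC box of Sp factors), CAGCTG (an E-box) and TATAAA (the TATA box). Capitals mark the first 3 of these or their reverse complements, and no 2 of the marked matches overlap.
Gad1, chr2:70561879-70562128, plus strand: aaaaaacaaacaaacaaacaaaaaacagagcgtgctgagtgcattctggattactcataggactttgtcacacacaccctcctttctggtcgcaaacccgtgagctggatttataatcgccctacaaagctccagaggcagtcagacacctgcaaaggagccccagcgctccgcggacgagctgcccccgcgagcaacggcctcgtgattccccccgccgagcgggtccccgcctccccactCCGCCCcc
Gad2, chr2:22622077-22622326, plus strand: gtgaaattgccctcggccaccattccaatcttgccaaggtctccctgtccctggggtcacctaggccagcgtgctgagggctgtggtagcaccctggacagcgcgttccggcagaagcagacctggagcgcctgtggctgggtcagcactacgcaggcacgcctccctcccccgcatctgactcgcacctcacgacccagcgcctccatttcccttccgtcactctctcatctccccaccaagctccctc
Slc32a1, chr2:158610508-158610757, plus strand: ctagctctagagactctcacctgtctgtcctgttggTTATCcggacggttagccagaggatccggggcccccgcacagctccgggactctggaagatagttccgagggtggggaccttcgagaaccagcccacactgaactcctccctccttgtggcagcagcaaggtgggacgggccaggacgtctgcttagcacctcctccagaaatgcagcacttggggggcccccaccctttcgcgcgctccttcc
Gata2, first start, chr6:88193641-88193890, plus strand: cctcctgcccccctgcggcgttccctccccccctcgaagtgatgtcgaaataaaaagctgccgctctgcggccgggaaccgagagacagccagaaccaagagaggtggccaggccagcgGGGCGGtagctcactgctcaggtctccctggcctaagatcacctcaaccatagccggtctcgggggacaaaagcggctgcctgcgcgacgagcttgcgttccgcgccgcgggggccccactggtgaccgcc
Gata2, second start, chr6:88198414-88198663, plus strand: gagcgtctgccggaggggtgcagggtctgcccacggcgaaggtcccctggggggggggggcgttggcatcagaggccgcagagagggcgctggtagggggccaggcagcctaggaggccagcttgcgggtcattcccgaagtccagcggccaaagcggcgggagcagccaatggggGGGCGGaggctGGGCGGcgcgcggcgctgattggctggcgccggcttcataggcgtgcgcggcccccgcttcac
Gata3, chr2:9878601-9878850, minus strand: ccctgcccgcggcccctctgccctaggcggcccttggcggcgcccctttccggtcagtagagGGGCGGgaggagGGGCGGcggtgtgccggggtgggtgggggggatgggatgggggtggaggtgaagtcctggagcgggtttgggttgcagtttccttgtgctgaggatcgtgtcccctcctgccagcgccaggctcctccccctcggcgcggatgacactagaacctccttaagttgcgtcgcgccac
Dmrt3, chr19:25610287-25610536, plus strand: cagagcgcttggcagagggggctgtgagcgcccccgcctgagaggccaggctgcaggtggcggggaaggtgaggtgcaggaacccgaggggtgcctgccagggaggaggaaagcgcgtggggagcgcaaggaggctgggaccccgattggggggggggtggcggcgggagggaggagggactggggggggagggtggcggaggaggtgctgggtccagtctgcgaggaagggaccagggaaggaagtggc

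Of these 7 windows, the GC box occurs once in that of Gad1, once and 2 times in those of Gata2 and 2 times in that of Gata3. A GC box is found in 32.7% of all 32851 promoters of the same length. GATAA is found in 22.6% of all promoters and, here, in the Slc32a1 window alone. TAATTA (4.8% of all promoters) is in none of the 7, and CAGCTG (13.0%) is in none of them either. TATAAA (12.4%) has 1 match, in the Gad1 window, which is not in capitals. The windows of Gad2 and Dmrt3 hold none of the 5 motifs. The share of G and C was 58.0% for Gad1, 64.0% for Gad2, 62.4% for Slc32a1, 67.2% and 74.0% for Gata2, 70.0% for Gata3 and 72.4% for Dmrt3, against a median of 52.4% over all promoters. A match is a description of letters in the window and not a binding site, and a missing match says only that the letters are not there. Gad1, Gad2, Slc32a1 and Gata3 all lie on chromosome 2, Gata2 and Evx1 on chromosome 6, Slc17a6 on chromosome 7, En1 on chromosome 1 and Dmrt3 on chromosome 19.

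The GABA-synthesis genes Gad1 and Gad2 were lower in knockout cultures over both days, and Gad1 rose from day 7 to day 9 in control cultures. Gad1 was at -2.03 and -2.42 in control and at -2.40 and -3.24 in knockout on day 7. It was at -0.32 and -0.49 in control and at -1.66 and -1.50 in knockout on day 9. So the 2 genotypes overlapped on day 7, while both knockout arrays lay below both control arrays on day 9. The change in knockout was -0.60 ± 0.29 (SE; limma, adjusted p = 0.324) on day 7 and -1.17 ± 0.29 (adjusted p = 0.0685) on day 9. Averaged over both days it was -0.89 ± 0.20 (adjusted p = 0.0372), which is 1.85-fold lower. This call was kept in 1 of 8 fits that left out 1 array (without knockout day 7 replicate 1), and the adjusted p ranged up to 0.105.

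Gad2 was at -1.66 and -1.62 in control and at -2.17 and -1.89 in knockout on day 7. By day 9 it stood at -1.13 and -1.24 in control and at -2.10 and -2.42 in knockout. The 4 knockout arrays lay below the 4 control arrays, with the gap wider on day 9. The change was -0.39 ± 0.17 (limma, adjusted p = 0.274) on day 7 and -1.07 ± 0.17 (adjusted p = 0.0275), or 2.10-fold lower, on day 9. The mean over both days was -0.73 ± 0.12 (adjusted p = 0.0175). The 2 knockout effects were not shown to differ (-0.68 ± 0.24, adjusted p = 0.826). The day 9 call was lost after normexp background correction (-0.87, 0.0698) and without any 1 of the 4 day 9 arrays (-1.23 to -0.91, adjusted p 0.0674 to 0.153), and the mean lost its call without control day 9 replicate 1 (-0.71, 0.0546) or knockout day 9 replicate 2 (-0.65, 0.0618).

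Pan-neuronal genes were lower in knockout cultures as well. All 12 pan-neuronal genes, such as those for tubulin beta 3 (Tubb3) and the synaptic vesicle protein synaptotagmin (Syt1), were well above background on all 8 arrays. Their summed level, in percent of the 75th percentile, was 37566 to 42429 in control and 26899 to 28509 in knockout on day 7. On day 9 it was 23143 to 28907 in control and 13206 to 13367 in knockout. Averaged over both days, 10 of the 12 were called lower and none higher, with a median of -0.64. The part of this in the values of Gad1, Gad2 and the other neuronal genes described here was not tested.

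Slc32a1, the vesicular transporter of GABA and glycine, was not called in either direction between genotypes. At its brighter probe it was at 2.07 and 2.15 in control and at 2.32 and 2.37 in knockout on day 7. The day 9 values were 2.72 and 2.65 in control and at 2.50 and 2.23 in knockout. Knockout arrays were the higher ones on day 7 and the lower ones on day 9, with no overlap on either day. The changes were 0.24 ± 0.14 (limma, adjusted p = 0.416) and -0.32 ± 0.14 (adjusted p = 0.218), and the difference between them was -0.55 ± 0.20 (adjusted p = 0.826). The mean over both days was -0.04 ± 0.10 (adjusted p = 0.807), with a 95% interval of -0.28 to 0.20. It turned to 0.14 when arrays were scaled to a common median and to 0.02 after normexp background correction.

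The second Slc32a1 probe was dim, though well above background on all 8 arrays. It was at -4.26 and -3.85 in control and at -4.57 and -4.36 in knockout on day 7. On day 9 it was at -3.98 and -4.10 in control and at -4.24 and -4.30 in knockout. Here the knockout arrays were the lower ones on both days, so the probes disagreed on day 7, where the dim probe gave -0.41 ± 0.18 (limma, adjusted p = 0.275). Its day 9 change was -0.23 ± 0.18 (adjusted p = 0.449) and its mean over both days -0.32 ± 0.12 (adjusted p = 0.128).

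Slc17a6, the vesicular glutamate transporter, had the largest SE of the 8 genes in the fit, which shares 1 spread over all groups. On knockout day 7 alone its replicates lay 0.69 apart, against 0.84 for Gad1 and 0.71 for Dmrt3. Slc17a6 was at -2.98 and -2.22 in control and at -3.34 and -2.65 in knockout on day 7. By day 9 it stood at -2.37 and -1.19 in control and at -1.76 and -3.27 in knockout, so the genotypes overlapped on both days and the highest and the second lowest of all 8 values were both day 9 arrays. The changes were -0.39 ± 0.61 (limma, adjusted p = 0.775) on day 7 and -0.74 ± 0.61 (adjusted p = 0.491) on day 9. The 95% interval of the day 9 change ran from -2.20 to 0.73. Within replicate numbers that change was 0.61 and -2.08.

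Gata2 and Gata3, the V2b factors, were lower in knockout cultures over both days, with the larger gap between the genotypes on day 7. Gata2 was at 1.17 and 1.38 in control and at 0.03 and 0.10 in knockout on day 7. The day 9 values were 1.29 and 1.08 in control and at 0.99 and 0.80 in knockout. The day 7 knockout arrays stood apart from the other 6, and the genotypes did not overlap on either day. The change was -1.21 ± 0.15 (2.31-fold lower, 95% interval -1.58 to -0.84; limma, adjusted p = 0.0542) on day 7 and -0.29 ± 0.15 (adjusted p = 0.293) on day 9. The mean over both days was -0.75 ± 0.11 (adjusted p = 0.0144), a call lost in 1 of 8 fits with 1 array left out (without knockout day 9 replicate 2: -0.70, 0.0592). The day 7 change passed with a filter that asks for signal on all 8 arrays (adjusted p = 0.0311) and with an intensity trend in the prior (0.0173). The difference between the 2 knockout effects was 0.92 ± 0.22 (adjusted p = 0.712).

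Gata3 was at 1.93 and 2.14 in control and at 1.02 and 1.17 in knockout on day 7. On day 9 it was at 2.64 and 2.78 in control and at 2.57 and 1.89 in knockout. The day 7 genotypes were clearly apart, while on day 9 knockout replicate 1 came within 0.07 of the control array of the same number. The change was -0.94 ± 0.23 (limma, adjusted p = 0.125) on day 7 and -0.48 ± 0.23 (adjusted p = 0.253) on day 9. The mean over both days was -0.71 ± 0.17 (adjusted p = 0.0382), 1.64-fold lower. This call was kept in 1 of 8 fits with 1 array left out (without knockout day 9 replicate 1), the others giving an adjusted p of 0.0699 to 0.0978.

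Trophoblast, the outer layer of the embryo that forms the placenta, also expresses Gata2 and Gata3, and its markers moved with the genotype. Of 18 listed trophoblast genes, 13 to 16 were well above background on the control day 7 arrays and 15 on both control day 9 arrays, against 11 on both knockout day 7 arrays and 10 to 11 on the knockout day 9 arrays. Their summed level, in percent of the 75th percentile, was 21307 to 29070 and 19425 to 23447 in control and 13557 to 14524 and 12701 to 13248 in knockout, on days 7 and 9. In both knockout groups Cdx2, Eomes, Elf5, Tpbpa, Tpbpb, Ctsq and Ctsr were below background on both arrays. In control, Elf5 was below background on both arrays on each day, Tpbpa on day 7 and Cdx2 on day 9. Averaged over both days, 13 of the 14 that passed the filter were called lower and none higher, with a median of -1.63. Among the 14, Tpbpb, Ctsq and Ctsr passed the filter through control arrays alone, so the filter itself favoured a lower value for them. The placental lactogen family gene Prl2a1 fell by 3.19 (limma, adjusted p = 0.00121). The placental cathepsin gene Ctsr was at least 7.52-fold lower (0.00258), the trophoblast-specific gene Tpbpb at least 9.96-fold (0.00699) and Ctsq, another placental cathepsin, at least 3.04-fold (0.0253). The call of Ctsq was kept in 2 of 8 fits with 1 array left out and lost after normexp (-1.20, 0.181). The part of trophoblast RNA in the values of Gata2 and Gata3 was not tested.

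Blood and endothelial cells also express Gata2. Of 12 listed genes of those cells, 6 to 10 were well above background per array, and Gata1 and Tie1 were below background on both arrays of every group. Their summed level was 283 to 409 in control and 288 to 414 in knockout on day 7, and 301 to 387 and 286 to 299 on day 9. The day 7 ranges overlapped. Averaged over both days, Emcn, an endothelial sialomucin gene, rose by 1.60 (limma, adjusted p = 0.0383). Cdh5, the cadherin gene of endothelial junctions, fell by 1.19 (0.0196), and Runx1, which drives the first blood stem cells, fell by 0.86 (0.0127). Emcn kept its call in 2 of 8 fits with 1 array left out and Cdh5 in 5 of 8, and both lost it after normexp (0.46, adjusted p = 0.181, and -0.50, 0.175). Their part in the values of Gata2 was not tested.

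Other genes of the V2 lineage did not move as a group. Of 12 tested, 3 were called higher and 2 lower over both days, with a median of 0.01. Foxn4, which acts in V2 progenitors, rose by 1.42 ± 0.27 (limma, adjusted p = 0.0236). Lhx3, shared by motor neurons and the excitatory V2a class, rose by 0.91 ± 0.11 (0.00995), and Bhlhe22, a basic helix-loop-helix factor, by 0.57 ± 0.12 (0.0293). With 1 array left out, Lhx3 kept its call in 8 of 8 fits, Foxn4 in 2 and Bhlhe22 in 0. Tal1, the partner of the GATA factors in V2b cells, was at -0.18 (adjusted p = 0.373) and, like the lower-called Sox1 (-0.53, 0.0217), is named after its value was seen.

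Dmrt3, the dI6 factor, had the largest difference of the 8 genes. It was at -2.26 and -2.06 in control and at -3.32 and -4.03 in knockout on day 7. By day 9 it stood at -2.65 and -2.59 in control and at -4.76 and -4.48 in knockout. Every knockout array lay below every control array. In intensity units the day 7 control arrays read 343 and 156 and the knockout arrays 169 and 40.8, and the day 9 arrays read 173 and 117 in control and 52.8 and 38.2 in knockout, against 18.5 to 23.8 for the dimmest signals counted as well above background. The change was -1.52 ± 0.25 (limma, adjusted p = 0.0749) on day 7 and -2.0 ± 0.25 (adjusted p = 0.0190), or 3.99-fold lower, on day 9. The mean over both days was -1.76 ± 0.17 (adjusted p = 0.00674), 3.38-fold lower, and it was called in all 8 fits with 1 array left out (-1.94 to -1.58). The day 9 call was lost without any 1 of the day 9 arrays (-2.13 to -1.86, adjusted p 0.0512 to 0.108). After normexp, which compresses dim signals, the day 9 call was lost (-1.02 ± 0.22, 0.0751), and the mean kept its call at a smaller size (-0.95 ± 0.16, 0.0250).

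The other genes of dorsal lineages were counted in the same way. Of 22 listed, 21 are on the array and 12 passed the filter, and over both days 1 was called higher and none lower, with a median of -0.10. The one called was Pou4f1, a factor of several dorsal classes, at 0.42 ± 0.10 (limma, adjusted p = 0.0401), a call kept in 0 of 8 fits with 1 array left out and lost after normexp (0.40, 0.0785). Next by p was Lmx1b, a factor of the dI5 class, at -0.40 ± 0.13 (0.0900). Wt1, which marks a subset of dI6 cells, was at 0.88 (adjusted p = 0.176) and is named after its value was seen.

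Evx1, the V0 factor, did not pass the test between genotypes on either day and was lower on day 9 than on day 7 in control cultures. It was at -3.19 and -3.30 in control and at -3.13 and -3.35 in knockout on day 7. The day 9 values were -4.0 and -4.50 in control and at -3.68 and -3.51 in knockout. The day 7 values overlapped, and both day 9 knockout arrays lay above both controls. The change was 0.01 ± 0.20 (95% interval -0.47 to 0.49; limma, adjusted p = 0.991) on day 7 and 0.65 ± 0.20 (95% interval 0.18 to 1.13, adjusted p = 0.108) on day 9. The mean over both days was 0.33 ± 0.14 (adjusted p = 0.157), and the difference between the days 0.65 ± 0.28 (adjusted p = 0.834).

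En1, the V1 factor, was not well above background on any of the 8 arrays. Its probe is spotted 10 times on each array and read 4.36 to 7.99 intensity units, below the 18.5 to 23.8 at which the dimmest signals counted as well above background, so no fold is given. Of 11 other tested genes of the V0 and V1 lineages, 3 were called higher and 2 lower over both days, with a median of -0.11. Dbx2, a progenitor factor of the V0 and V1 domains, rose by 1.40 ± 0.18 (limma, adjusted p = 0.0108). Dbx1, which acts in V0 progenitors, was at least 2.52-fold higher on day 9 (0.0229), where both control arrays were below background, and its mean over both days passed (0.0118). Both lost their calls after normexp, where Dbx2 was at 0.56 (adjusted p = 0.124) over both days and Dbx1 at 0.46 (0.415) on day 9 and 0.73 (0.0678) over both days. Sp8, a zinc finger factor of ventral progenitors and V1 cells, rose by 1.36 ± 0.22 (0.0171). Nr5a2, a nuclear receptor found in subsets of V1 cells, fell by 1.14 ± 0.22 (0.0239), a call kept in 3 of 8 fits with 1 array left out.

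**Figure D2:**
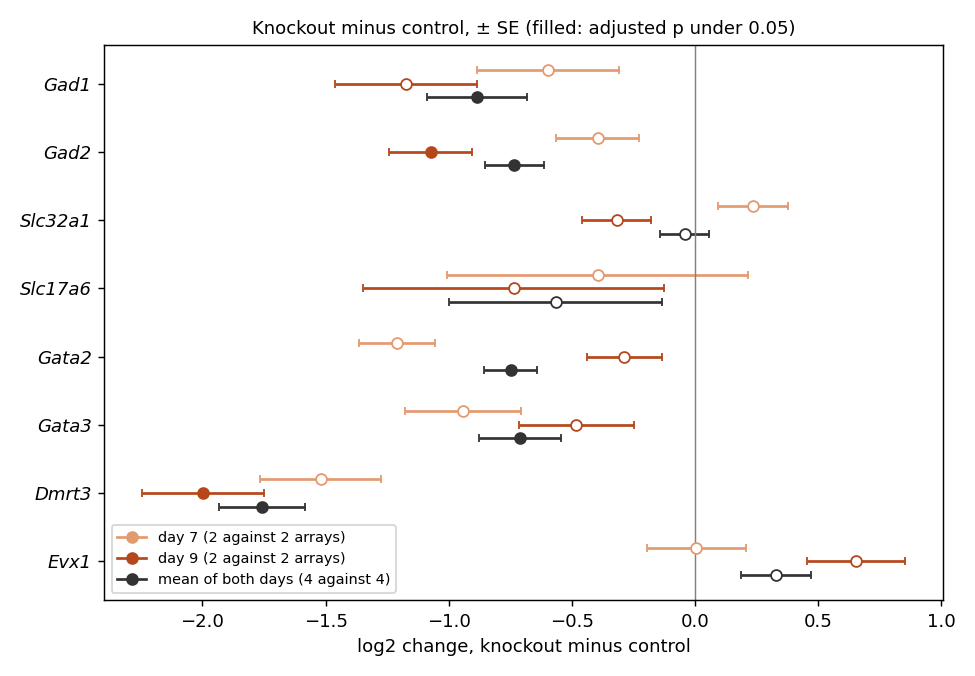
Each point is the knockout minus control log2 change of 1 gene, on day 7, on day 9 or as the mean of both days, with bars of 1 SE from the limma fit; filled points passed at an adjusted p under 0.05. The 5 filled means are Dmrt3 (-1.76), Gad1 (-0.89), Gata2 (-0.75), Gad2 (-0.73) and Gata3 (-0.71), and no filled point lies on the right of 0.

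Between day 7 and day 9, 2 of the 8 genes changed in control cultures and 2 others in knockout cultures. Of all genes tested, 7.38% were called in control and 8.31% in knockout. In control, Gad1 rose by 1.82 ± 0.29 (3.53-fold; limma, adjusted p = 0.0215) and Evx1 fell by 1.01 ± 0.20 (2.01-fold; 0.0373). In knockout, the same quantities were 1.24 ± 0.29 for Gad1 (adjusted p = 0.0502) and -0.36 ± 0.20 for Evx1 (adjusted p = 0.312). In knockout, Gata3 rose by 1.13 ± 0.23 (0.0362) and Gata2 by 0.83 ± 0.15 (0.0264), while in control they were at 0.67 ± 0.23 (adjusted p = 0.134) and -0.09 ± 0.15 (adjusted p = 0.747). None of these pairs was shown to differ, since the interaction gave an adjusted p of 0.712 to 0.888 for the 4 genes.

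The day comparisons rest on few arrays. Without any 1 of the 4 control arrays Gad1 was at 1.62 to 2.01 and no longer passed (limma, adjusted p 0.0514 to 0.119). Evx1 kept its call in 1 of 8 such fits (without control day 9 replicate 1) and was at -0.75 (0.152) without control day 9 replicate 2, and at -0.31 (0.477) after normexp, and it lost its call under a median shift (-0.94, 0.0544). Gata2 in knockout lost its call without any 1 of the 4 knockout arrays (0.74 to 0.93, 0.0835 to 0.144). Gata3 kept its call in 1 of 8 (without knockout day 9 replicate 2, 1.47) and lost it after normexp (1.12, 0.0504). Both day 9 arrays lay apart from both day 7 arrays for 6 of the 8 genes in control and 5 in knockout, against 54.8% and 58% of all genes. In control the 6 included Dmrt3, at -0.47 ± 0.25 (0.289), and Slc32a1, at 0.57 ± 0.14 (adjusted p = 0.0618). Slc32a1 passed after quantile normalization (0.66, 0.0435), under the median shift (0.64, 0.0467), with the authors' deposited values (0.66, 0.0435), with a filter on all 8 arrays (0.0480) and with a prior trend (0.0267), while its dim probe was at 0.02 ± 0.18 (0.970).

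**Figure D3:**
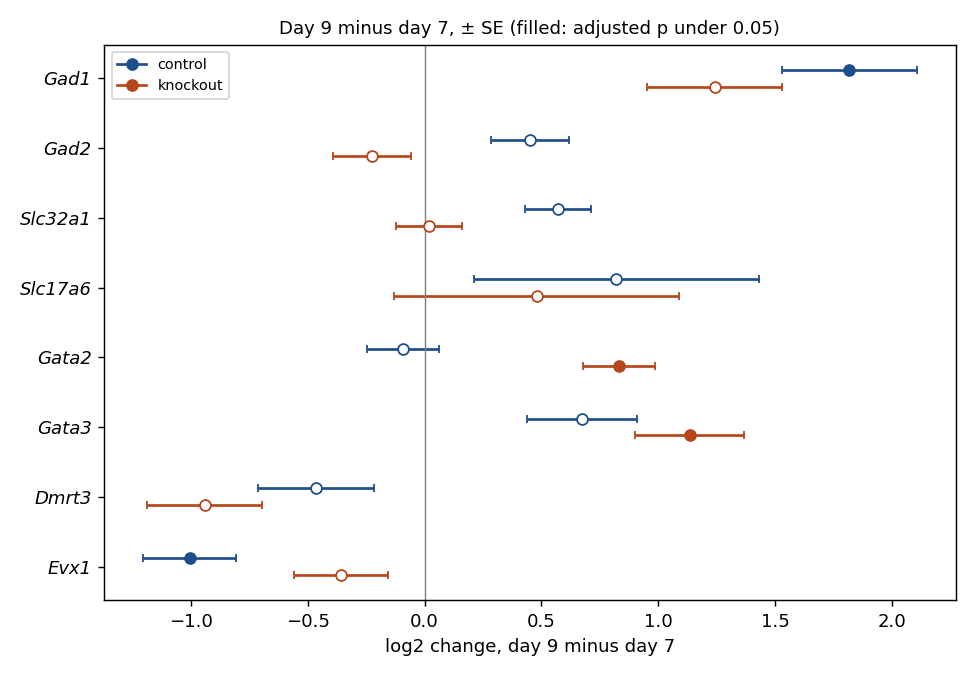
Each point is the day 9 minus day 7 log2 change of 1 gene in control or knockout cultures, with bars of 1 SE from the limma fit; filled points passed at an adjusted p under 0.05. Gad1 (1.82) and Evx1 (-1.01) are filled in control, and Gata3 (1.13) and Gata2 (0.83) in knockout.

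Companion genes of the transmitters were counted in the mean over both days. Of 12 tested genes of GABA and glycine transmission, 1 was called higher and 3 lower, with a median of -0.27. Slc6a13, a GABA transporter gene of meninges and glia, rose by 1.27 ± 0.14 (limma, adjusted p = 0.00774), and on day 9 by 1.85 ± 0.20 (0.0153). Sst, the peptide somatostatin of inhibitory neurons, fell by 1.13 ± 0.15 (0.0121). Slc6a11, an astrocytic GABA transporter gene, fell by 0.74 ± 0.12 (0.0164), and Calb2, the calcium-binding protein calretinin, fell by 1.28 ± 0.18 (0.0132) with 1 of 4 knockout arrays and 3 of 4 control arrays well above background. Both of these lost their calls after normexp (Slc6a11 at -0.40, 0.142, and Calb2 at -0.47, 0.273), and Slc6a11 kept its call in 5 of 8 fits with 1 array left out. Calb2 passed the filter through control arrays alone, so the filter itself favoured a lower value for it. 

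Of 10 tested genes of glutamate supply, storage and uptake, 1 was called lower and none higher, with a median of -0.12. It was Slc1a1, a neuronal glutamate uptake transporter gene, which fell by 0.93 ± 0.14 (limma, adjusted p = 0.0153). Glul, the glutamine synthetase gene, was at -0.38 ± 0.13 (adjusted p = 0.106). The list for the acetylcholine of motor neurons holds 5 genes, among them Prph, which is a filament gene and not one of transmission. Over both days 5 of 5 were called lower, with a median of -0.98. On day 7 alone 0 were called, and on day 9 alone 4. Slc5a7, the choline transporter gene, fell by 1.85 ± 0.28 (0.0158) and Prph, the intermediate filament peripherin, by 1.31 ± 0.18 (0.0129). Slc18a3, which loads acetylcholine into vesicles, fell by 0.98 ± 0.16 (0.0175), and Chat, which makes it, by 0.96 ± 0.17 (0.0196). The other called gene, Ache, which breaks acetylcholine down, was at -0.84 (0.00995) and is named after its value was seen. Chat kept its call in 4 of 8 fits with 1 array left out.

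**Figure D4:**
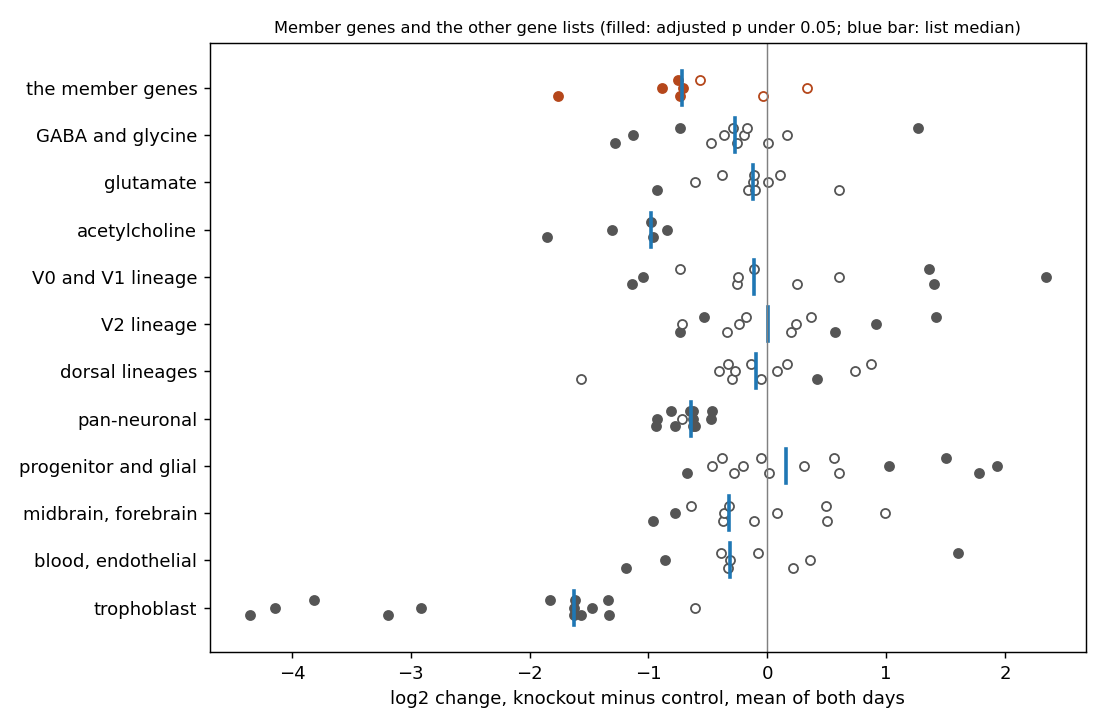
Each point is 1 tested gene, placed by its knockout minus control log2 change averaged over both days, with 1 row per gene list; filled points passed at an adjusted p under 0.05 and blue bars are list medians. The median was -0.72 for the 8 interneuron and transmitter genes and -0.98 for the acetylcholine list, which also holds the filament gene Prph. It was -0.64 for pan-neuronal genes, 0.01 for the V2 lineage and -1.63 for trophoblast.

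Gene groups of neighbouring fates were set beside these. Of 10 motor neuron genes, 1 was called higher (Lhx3) and 3 lower (Prph, Slc18a3 and Chat) over both days, with a median of -0.52. These 4 were already counted above, in the V2 or the acetylcholine list. The summed level of the 10 was 6718 to 6861 in control and 6169 to 6455 in knockout on day 7. On day 9 it was 4124 to 5068 and 3558 to 3651. Of 14 progenitor and glial genes, 4 were called higher and 1 lower, with a median of 0.16. Olig2 and Olig1, factors of motor neuron progenitors, rose by 1.93 ± 0.26 and 1.78 ± 0.26 (limma, adjusted p = 0.0129 and 0.0146). Pax6, a factor of ventral progenitors, rose by 1.51 ± 0.23 (0.0158) and Hes5, a target of Notch, by 1.03 ± 0.24 (0.0382). After normexp Pax6 was at 0.77 (0.0571), and Hes5 kept its call in 2 of 8 fits with 1 array left out. The gene called lower was the homeobox gene Nkx6-2 (-0.68, 0.0189), and it is named after its value was seen. Neither of the V3 interneuron genes with the smallest p passed, Nkx2-2 at -0.23 ± 0.18 (0.429) and Nkx2-9 at 0.20 ± 0.18 (0.470).

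Regions of the midbrain and forebrain also express En1, Gata2, Gata3 or Gad1. Of 15 listed genes of those regions, 7 to 12 were well above background per array, and Dlx6 was below background on both arrays of every group. The summed level was 647 to 751 in control and 461 to 586 in knockout on day 7, and 1880 to 2080 and 1559 to 2061 on day 9. Of 11 tested, 2 were called lower over both days and none higher, with a median of -0.32. The change was positive for 4 of the 11, up to 0.99. The 2 called were En2, a relative of En1, and Otx2, a factor of the anterior brain. En2 fell by 0.78 ± 0.14 (limma, adjusted p = 0.0218) and Otx2 by 0.96 ± 0.19 (0.0252), with 2 of 4 knockout arrays above background for Otx2. Otx2 passed the filter through control arrays alone, so the filter itself favoured a lower value for that gene. En2 and Otx2 each kept the call in 2 of 8 fits with 1 array left out. Otx2 also lost it after quantile normalization (-0.78, 0.0514), with the authors' values (-0.78, 0.0508) and after normexp (-0.49, 0.137). The part of these regions in the values of the GAD and GATA genes was not tested.

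Likeness between genes was described as Pearson's r over the 8 arrays, which share 4 groups, 1 slide and 1 scaling, so it is given without a p. Among the 8 genes, Gata2 and Gata3 had an r of 0.85 and Gad1 and Gata3 of 0.82. Slc17a6 and Gata3 followed at 0.76, then Gad2 and Dmrt3 at 0.74. Dmrt3 had an r of 0.19 with Gad1, 0.21 with Gata3 and 0.49 with Gata2. Evx1 ran against Gad1 (-0.83), Slc32a1 (-0.83), Slc17a6 (-0.78) and Gata3 (-0.78). Slc32a1 and Gata2 had an r of 0.08. Of 15029 other genes with a symbol, those most like Gad1 were Smim10l1 (0.987) and Ccdc85a (0.983). For Gad2 they were Hspa1a (0.980) and Slc8a1 (0.979), for Slc32a1 Eml6 (0.948) and Rgs4 (0.940), and for Slc17a6 Saysd1 (0.964) and Arhgef3 (0.964). For Gata2 they were Crb1 (0.976) and Camk2a (0.971), and for Gata3 Plcxd2 (0.975) and Slc2a13 (0.972). Evx1 was most like Prdm8 (0.992), which is on the dorsal list, and Ddx54 (0.991), and Dmrt3 was most like Trim36 (0.990) and Bglap3 (0.986).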

How the data were processed

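Total RNA was labelled with Cy3 and hybridised to 1-colour Agilent SurePrint G3 mouse arrays, per the labels. The submitters' processing notes name Agilent Feature Extraction, version 10.5.1. The deposited intensity is the processed signal, background-subtracted and detrended within the array and not scaled between arrays, per the file headers. The authors also deposited log2 values of the same arrays, each column with a median of 5.80. Their offset stays unknown and they served only as an alternative. They called nearly as many genes as quantile normalization did (1095 and 1097 on day 9, 3399 and 3399 in the mean). These 2 settings should therefore not be read as separate checks.

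Here, 3671 control spots and the outlier spots were left out, spots of a probe were averaged on the log2 scale, and the 75th percentile of each array was subtracted. A probe was kept where some group had at least 0.5 of its spots well above background on each of its 2 arrays, and the brightest kept probe stood for a gene. A mean over both arrays of a group lies on 2 values, and the number of arrays limits the precision. No spot was saturated. Symbols came from the RefSeq gene table by accession. One limma 3.58.1 fit in R 4.3.3 (lmFit, eBayes, two-sided) of 4 group means gave 6 contrasts (residual degrees of freedom 4, prior 2.53). Benjamini-Hochberg adjustment ran over 24623 genes, and a gene was called under 0.05. A gene below background on all arrays of a group has a bound ("at least N-fold") against the lowest signal well above background per array, beside the adjusted p of the fit.

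The members, gene lists and tests were chosen with earlier results of these data known, so list counts are descriptions. Named besides the 9 genes were up to 4 called genes a list by size of the mean effect, or the 2 of smallest p where fewer than 2 were called, and the 2 genes most like each member; exceptions are stated, and 2 called genes are not reported here. The fit was tested on simulated data. Alternatives were quantile and median scaling, normexp (offset 50, on the median signals, since mean signals were not used here), the authors' values, other filters and probe rules, a replicate block, a prior trend, fits of the compared groups alone and leaving out each array.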

Additional observations from a re-analysis of the deposited data

Results flagged for a closer look

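At its brighter probe, Slc32a1 was higher in knockout than in control cultures in both same-numbered comparisons on day 7 (0.26 and 0.22, fitted change 0.24) and lower in both on day 9 (-0.22 and -0.42, fitted change -0.32). It is listed because the sign differed between the 2 days in both same-numbered comparisons. The numbers were not taken to pair the samples. The test of the difference itself gave -0.55 ± 0.20 (limma, adjusted p = 0.826) and did not pass. At the dim probe the change was negative on both days (-0.41 and -0.23), so the turn in direction was not seen there.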

How the results depend on the processing

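Of 470 values of the 8 genes under settings that keep all arrays, 464 kept their direction, and of 384 with 1 array left out, 371 did. The 5 calls over both days fell to 3 under a median shift (without Gad1 and Gata3) and to 1 (Dmrt3) with no filter on dim probes, and to 1 to 4 with 1 array left out. Dmrt3 was called under all 9 settings. Gad1 was also lost after quantile normalization (-0.82, limma, adjusted p = 0.0587) and with the authors' values (-0.82, 0.0576), and Gata3 after normexp (-0.63, 0.0649). The 2 calls on day 9 (Gad2 and Dmrt3) were both lost under normexp, where Gad1 was the 1 call, and became 1 (Dmrt3) with the compared groups alone and 0 with no filter, and 0 to 3 with 1 array left out. The 0 calls on day 7 became 2 with a filter on all 8 arrays and 2 with a prior trend (Gata2 and Dmrt3), and stayed at 0 with 1 array left out. From day 7 to day 9, the 2 calls in control became 1 under normexp (Gad1) and were 2 under the median shift with Slc32a1 in place of Evx1, and became 0 with no filter or the compared groups alone, and the 2 in knockout became 0 with no filter and 1 (Gata2) with the compared groups alone, and were 2 under normexp with Gad1 in place of Gata3; each became 0 to 1 with 1 array left out. The interaction stayed at 0.

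Of 35 other named genes called in the mean over both days, 30 lost the call with no filter on dim probes, 11 under normexp, 1 after quantile normalization and 1 with the authors' values, and 12 were called in every fit with 1 array left out (3 to 23 lost per array, the most without knockout day 9 replicate 2). Over all genes, the calls on day 7 (53) became 21 under normexp, 0 with no filter, 184 with the filter on all 8 arrays, 102 with the replicate block, 313 with the trend and 0 with the compared groups alone. On day 9 (1347) they became 2046 under the median shift, 307 under normexp, 1 with no filter, 2030 with the block and 52 with the compared groups alone. From day 7 to day 9 in control (1817) they became 696 under normexp, 75 with no filter and 182 with the compared groups alone, and in knockout (2045) 890 and 480 under normexp and no filter. The mean (3652) gave 1676 and 220 under those. The 1 interaction call became 0 under every setting that keeps all arrays except the mean of kept probes. With 1 array left out the counts ran from 0 to 125, 7 to 809, 8 to 1306, 438 to 1994, 0 to 1 and 450 to 2716, in the order day 7, day 9, day in control, day in knockout, interaction and mean.

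Direction turned for Slc32a1 on day 7 (-0.087 as the mean of its probes, -0.41 at the dim probe, a setting chosen after seeing the data), in the interaction (0.18 at the dim probe) and in the mean (0.14 under the median shift, 0.021 under normexp), for Evx1 in the interaction (-0.016 under normexp), and on day 9 for Slc6a11 (0.070 under the median shift) and Nkx2-2 (-0.070 as the mean of its probes). With 1 array left out, values crossed 0 for Slc17a6 on day 9 (-1.49 to 0.017), in knockout over days (-0.27 to 1.23) and in the interaction (-1.09 to 0.41), Evx1 on day 7 (-0.10 to 0.12), Gata2 in control over days (-0.20 to 0.013), Slc32a1 in knockout over days (-0.11 to 0.15) and in the mean (-0.11 to 0.026), Hes5 on day 7 (-0.17 to 0.56) and Nkx2-2 on day 9 (-0.048 to 0.18). The cause was not tested.

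Of all calls, the share that were higher was 45.3% on day 7, 27.5% on day 9 and 37.0% in the mean; it was 55.6%, 36.9% and 48.2% after quantile normalization and 58.5%, 69.6% and 73.4% after the median shift. Over days it was 55.8% in control and 49.9% in knockout, and 67.6% and 68.3% after the median shift. That shift took the median of all genes on day 7 from -0.05 to 0.08, on day 9 from -0.02 to 0.21, in the mean from -0.04 to 0.14, over days in knockout from -0.12 to 0.05 and in the interaction from 0.00 to 0.10. Replicate numbers coincide with the row on the slide, and same-numbered deviations correlated between -0.25 and 0.46, so the numbers were not taken to pair the samples. With that number as a block, the 2 member calls on day 9 and the 5 in the mean were the same genes, and Gad1 in knockout over days passed (adjusted p = 0.0405). Dim probes (En1, Calb2, Dbx1, Otx2) limit what can be said.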
